A study of Homo sapiens with 6 samples.

Results

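The major histocompatibility complex (MHC) is the gene-dense stretch on the short arm of chromosome 6 that holds the HLA genes. The genes described here were selected on position and type: every row of the deposited table that was labelled protein-coding and started on chromosome 6 between 29.6 and 33.4 Mb (GRCh38). This gave 155 rows, of which 3 (FLOT1, IER3 and RPS18) were left out by the rule, so that 152 of the 58676 listed genes, or of the 19922 protein-coding genes, were members. RNA was sequenced from A549, an established human lung adenocarcinoma line, in 2D culture. A549 Rec carried a human recoverin cDNA and A549 MOCK the empty vector, with 3 libraries in each group and 6 days of culture in the sample labels. By the methods, A549 Rec cells were transduced with a retroviral vector and selected with puromycin. A549 MOCK is described there as A549 cells transformed with the empty vector. Nothing in the sources says that the libraries of a group came from separate cultures, so that p-values measure the spread between these libraries only. The question of the comparison is which transcripts differ when recoverin, a calcium-binding protein of photoreceptors, is made in a lung cancer line.

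HLA class I proteins are found on almost all nucleated cells and hold peptides from inside the cell for inspection by CD8 T cells and NK cells. HLA class II proteins hold peptides from ingested material for CD4 T cells and are made mainly by B cells, dendritic cells and macrophages, and by other cells after interferon-gamma. Between the class I and class II genes lies the class III stretch, which codes for complement components, TNF and its relatives, HSP70 chaperones and many genes that all cells use. The region is among the most variable of the human genome between people, and GRCh38 therefore holds alternate sequences of it beside chromosome 6. A read that fits both chromosome 6 and an alternate sequence equally well has more than 1 place in a reference that includes both.

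In these libraries the MHC region was nearly blank. Of the 152 members, 103 (67.8%) were listed at 0 in all 6 libraries, 37 were above 0 but under a TPM of 1 in every library, and 12 reached a TPM of 1 in at least 1 library. TPM is the read count of a gene per unit of its length, with the values of each library summing to 1000000. Of the 19767 protein-coding genes outside the interval, 17.6% were listed at 0 in every library and 63.7% reached a TPM of 1 in at least 1 of them. On the rest of chromosome 6 the share listed at 0 was 16.9% of 889 genes. Genes that cells in culture use throughout were among the members listed at 0, for example TUBB (beta-tubulin), VARS (valyl-tRNA synthetase), LSM2 (RNA processing) and ABCF1 (translation initiation), which were named after their values were seen. A listing at 0 is therefore given here as a listing and not as absence of the transcript. In bulk RNA, fewer cells with a transcript and less of it per cell cannot be told apart.

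The members' exons were compared with the alternate sequences letter by letter. The genome sequence used held 261 alternate sequences, 16 of them for chromosome 6. For each member, every run of 50 bases that lay wholly inside its exons (GENCODE v44) was counted as 1 window, and a window was called present on an alternate sequence if the same letters stood there on either strand. In the median member 100% of the windows were present on an alternate sequence. In 94 members every window was, and in 143 the share was at least 90%. Among the 19676 other protein-coding genes with windows the median share was 0% and 2.7% had a share of at least 90%. The number of alternate sequences that held any window of a member ranged from 3 to 15, with a median of 7. A window that stood once on chromosome 6, nowhere else on the primary chromosomes and on no alternate sequence was called private, and 56 members had at least 1 private window.

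Stretches of 61 bases are printed to show what these windows look like, each from GRCh38 and 5′ to 3′ on the strand given, inside a coding exon. The first 3 hold a single base, in capitals, by which chromosome 6 differs from every alternate sequence that carries the flanks. The substitution gives the chromosome 6 base, its position counted from 1 at the 5′ end of the printed stretch, and the base of the alternate sequences.
NFKBIL1 (chr6:31558105-31558165, plus strand, C31T): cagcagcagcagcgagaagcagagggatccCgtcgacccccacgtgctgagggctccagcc
PRRC2A (chr6:31636237-31636297, plus strand, T31G): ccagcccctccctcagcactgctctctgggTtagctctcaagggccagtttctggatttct
C4A (chr6:31996978-31997038, plus strand, T31G): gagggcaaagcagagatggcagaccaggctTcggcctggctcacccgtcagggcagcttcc
These 3 genes were among the 6 members with enough signal to be tested. In NFKBIL1 that base gave all 50 private windows of the gene.
The next 3 stand letter for letter on alternate sequences too: TUBB on 7, ATF6B on 3 and KIFC1 on 2 of them.
TUBB (chr6:30723418-30723478, plus strand): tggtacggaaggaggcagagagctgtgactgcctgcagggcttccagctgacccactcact
ATF6B (chr6:32116504-32116564, minus strand): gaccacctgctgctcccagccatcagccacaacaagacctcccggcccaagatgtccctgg
KIFC1 (chr6:33398029-33398089, plus strand): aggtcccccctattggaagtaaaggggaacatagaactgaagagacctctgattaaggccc
The last is from HLA-DQB1, the member with the lowest share of windows on alternate sequences (7.80%), and stands on 0 of them.
HLA-DQB1 (chr6:32662057-32662117, minus strand): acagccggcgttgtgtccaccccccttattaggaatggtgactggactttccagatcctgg

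Among the 96 members without a private window, 79 (82.3%) were listed at 0, and among the 56 with at least 1 it was 24 (42.9%). Of the 3810 reads of all members in the 6 libraries, 2954 fell on the members with a private window and 856 on the others. By the share of windows itself the members did not divide in that way. Of the 143 with a share of at least 90%, 67.1% were listed at 0, as were 7 of the other 9. Genes away from the region were divided by the share only. Outside 28.5 to 33.5 Mb of chromosome 6, 337 protein-coding genes had at least 99% of their windows on alternate sequences and 67.1% of these were listed at 0, against 17.5% of the 15836 genes with a share under 1%. Of the 3477 genes with a share in between, 11.9% were listed at 0. These sets were not matched for the kinds of genes in them, and may differ in how far a lung line makes their transcripts. Some members with many private windows were listed at 0 as well. HLA-B had 1093 private windows, HLA-DQA1 5825 and HLA-DQB1 4264, and all 3 were listed at 0 in every library. These windows are those of GENCODE v44 exons, which can reach beyond the gene as the deposited table lists it. For HLA-B some private windows, such as those around position 31366487, lie past the listed end of the gene at 31357188. Private windows are those of the chromosome 6 sequence, and whether A549 carries that sequence at these genes was not checked. Whether A549 makes these transcripts is not known from these data either, so that no conclusion on private windows is drawn from them. The sources used here do not say whether the reference to which the reads were mapped included alternate sequences, nor how reads with several places were counted, and their part in the listing at 0 was not tested.

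**Figure D1:**
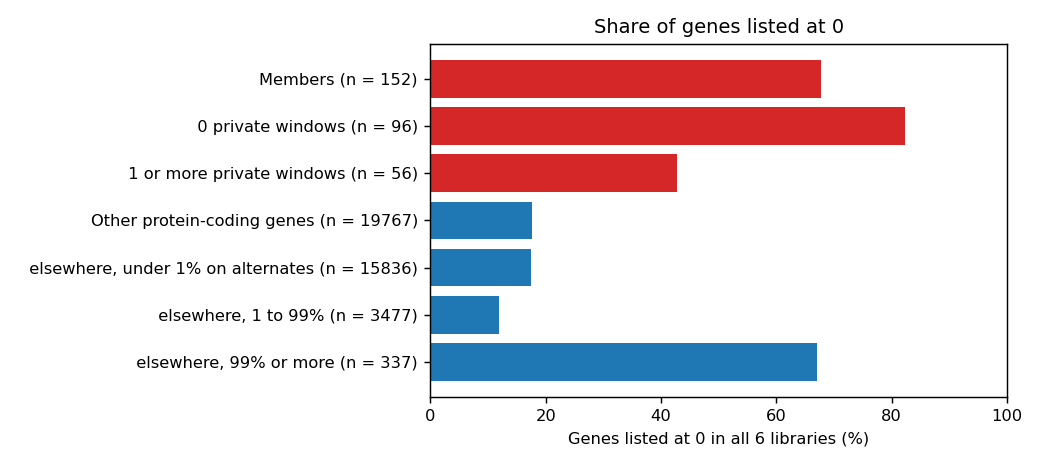
Percent of genes listed at a TPM of 0 in all 6 libraries. Red bars are the 152 members and their split by private windows, blue bars are protein-coding genes outside the interval, and "elsewhere" is outside 28.5 to 33.5 Mb of chromosome 6, by the percent of exon windows on alternate sequences. Members (67.8%) and genes elsewhere with 99% or more (67.1%) stand far to the right of genes with under 1% (17.5%) and with 1 to 99% (11.9%).

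Genes listed at 0 were also found on both sides of the interval. Before it, the nearest protein-coding genes OR2H2, GABBR1, UBD and OR2I1P were listed at 0, as were the first members MOG (a myelin protein) and ZFP57 (an imprinting factor). Whether a lung line makes the transcripts of these genes is not known from these data, so that they do not place the start of the blank stretch. In the 2.5 Mb before the interval 27 of 62 protein-coding genes were listed at 0 and 28 reached a TPM of 1. In the 2.5 Mb after it this was 3 and 27 of 39 genes. The last members were AL662820.1, listed at 0, and KIFC1. Past KIFC1 came PHF1, at a TPM of 2.21, 0.847 and 0.248 in A549 MOCK against 0, 0.286 and 0.528 in A549 Rec, and CUTA, at 18.2, 1.30 and 30.9 in A549 MOCK against 127, 1.73 and 2.33 in A549 Rec. Their shares of windows on alternate sequences were 99.4% and 100%. ZBTB9 (98.3%) was listed at 0. Farther out, BAK1, a pore-forming protein of apoptosis, had no window on an alternate sequence and a TPM between 38.8 and 48.4 in the 6 libraries. ITPR3, a calcium channel of the endoplasmic reticulum with a share of 0% as well, had a TPM between 79.9 and 88.1. The level of CUTA spread widely between libraries of 1 group, while that of BAK1 and ITPR3 did not.

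**Figure D2:**
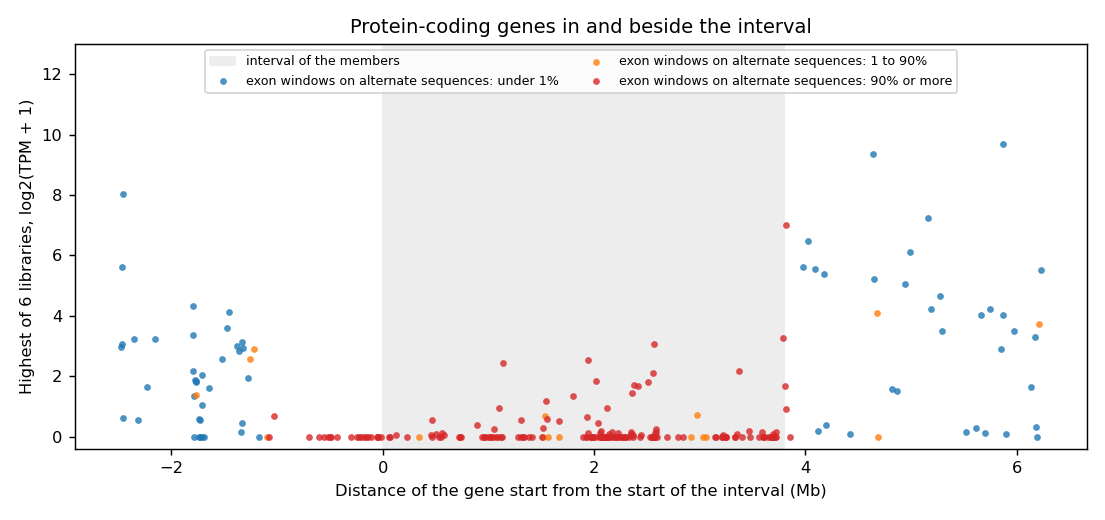
Highest level over the 6 libraries, as log2(TPM + 1), of each protein-coding gene in the interval (grey) and 2.5 Mb to each side, against the distance of its start from the start of the interval in Mb. Colour gives the percent of exon windows on alternate sequences. Most red genes (90% or more) lie at or near 0. Some lie above it, among them KIFC1 (highest TPM of 8.59) and AGPAT1 (7.40). CUTA, just past the interval, is the highest red gene, and blue genes (under 1%) start again with BAK1.

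The libraries were of similar depth. From the TPM values, between 15185449 and 18574422 reads per library could be recovered, of which 460 to 954 fell on members (29.7 to 51.4 of every 1000000). A count of 0 allows up to 3 reads in a library, which at the members' median length of 2950 bases was a TPM of 0.174 to 0.206. Such limits and all read counts here cover counting error only. Between 116 and 126 members were at 0 in a given library. The recoverin transcript RCVRN was at 0 in the 3 A549 MOCK libraries and at a TPM of 322, 338 and 339 in those of A549 Rec. Mitochondrially encoded genes took 34.5% and 26.9% of the TPM in the replicate 3 libraries of A549 MOCK and A549 Rec and 13.3% to 17.3% in the other 4. The epithelial keratins KRT8 and KRT18 were at a TPM of at least 1925, and the T cell gene CD3E and the B cell gene MS4A1 were at 0. KRT19, an epithelial keratin too, stayed under 0.325. Of the other blood cell markers, CD14 was between 4.53 and 7.35 and ITGAM between 2.76 and 3.43, and PTPRC, the pan-leukocyte marker, was at most 0.0866.

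**Figure D3:**
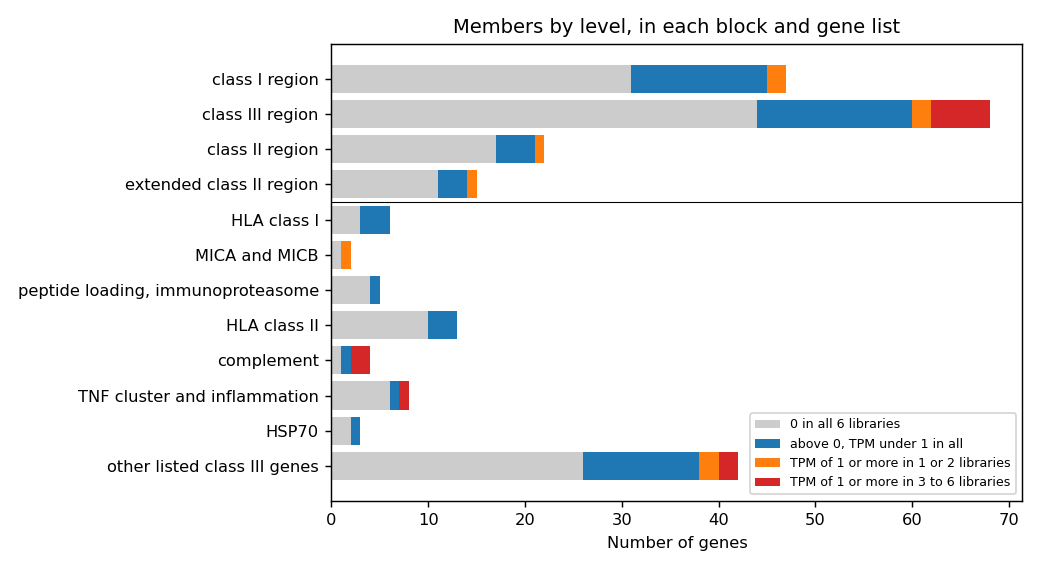
Number of members by level, in the 4 blocks along the chromosome (above the line) and in gene lists (below it). Grey genes were 0 in all 6 libraries, blue were above 0 with a TPM under 1 in all, orange had a TPM of 1 or more in 1 or 2 libraries and red in 3 to 6. The 6 red genes of the blocks all lie in the class III region.

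The HLA genes carried almost no reads. Of the 19 HLA genes, 13 were listed at 0 in every library, 6 had reads, and these came to 62 reads in all 6 libraries. Of these reads 24 were counted for HLA-DRB1, whose recovered length, and so its count, is uncertain. The highest TPM of any HLA gene in any library was 0.646. Reads from HLA genes can be shared among them, since their exons resemble each other, and how such reads were counted is not given in the sources used here.

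Of the class I genes, the classical HLA-B and the non-classical HLA-G, known from the placenta, were listed at 0. HLA-C, a classical gene too, had 1, 2 and 6 reads in A549 MOCK against 1, 2 and 5 in A549 Rec, a TPM of 0.0792, 0.162 and 0.426 against 0.0799, 0.137 and 0.378. The replicate 3 library was the highest in both groups and the groups overlapped. The annotated spans of HLA-B (chr6:31269491-31357188) and HLA-C (chr6:31268749-31272130) overlap on the minus strand. How reads in that overlap were counted is not given, so that they cannot be told apart. HLA-E, the ligand of the NK cell receptor NKG2A, had 1, 0 and 3 reads in A549 MOCK against 1, 2 and 5 in A549 Rec. HLA-F had 1 read in A549 MOCK replicate 3 and 0 elsewhere. In all, class I genes took 2, 2 and 10 reads in A549 MOCK against 2, 4 and 10 in A549 Rec, so that the replicate 3 libraries, in which mitochondrial transcripts were also highest, held the most in each group. The part of that in the difference was not tested. MICA and MICB are class I-like ligands of the NK cell receptor NKG2D. MICB was listed at 0. MICA was at 0, 1.53 and 0.597 in A549 MOCK against at 0, 0.789 and 0.716 in A549 Rec, which in reads was 0, 18 and 8 against 0, 11 and 9. Both replicate 1 libraries were empty, and the groups overlapped.

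The genes that supply peptides to class I proteins lie in the class II block and beside it. TAP1 and TAP2 form the pump that carries peptides into the endoplasmic reticulum, TAPBP (tapasin) bridges it to class I, and PSMB8 and PSMB9 are subunits of the immunoproteasome. TAP1, TAPBP, PSMB8 and PSMB9 were listed at 0 in all libraries, and TAP2 had 2 reads in A549 Rec replicate 3 alone. All windows of the first 4 were present on alternate sequences, and TAP2 had 50 private windows of 9867.

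Of the 13 class II genes, 10 were listed at 0. These were HLA-DRA and HLA-DRB5, HLA-DQA1, HLA-DQB1, HLA-DQA2 and HLA-DQB2, HLA-DPB1, and HLA-DMB, HLA-DOA and HLA-DOB of the peptide exchange machinery. HLA-DRB1, a beta chain of the main class II molecule, had 12, 3 and 3 reads in A549 MOCK against 0, 0 and 6 in A549 Rec, while HLA-DRA, its partner chain, had 0. Each of these HLA-DRB1 counts is 0 or a multiple of 3, so that a gene length smaller by that factor would fit as well. HLA-DRB1 is also a member with a low share of windows on alternate sequences, at 22.9%, and 2002 of its 2691 windows were private. HLA-DPA1 had 0, 4 and 0 reads in A549 MOCK against 2, 1 and 0 in A549 Rec, and HLA-DMA had 1 read in A549 MOCK replicate 3. For HLA-DRB1 the groups overlapped in the replicate 3 library of A549 Rec. The region held 4 members with under 50% of windows on alternate sequences, all of class II, and the other 3 of them (HLA-DRB5, HLA-DQA1 and HLA-DQB1) were listed at 0.

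Genes of antigen presentation that lie elsewhere in the genome were measured in the same libraries. Of 31 genes on that list, 30 reached the level needed for the test. B2M, the light chain of class I, was at a TPM of 38.8, 49.7 and 33.9 in A549 MOCK against 32.6, 34.1 and 41.3 in A549 Rec, with 93.7% of its windows present on alternate sequences. NLRC5, the activator of class I genes, was between 5.36 and 6.77, and CIITA, that of class II genes, between 3.40 and 5.75. CD74, the class II invariant chain, was at 9.85, 8.80 and 5.82 in A549 MOCK against 7.23, 5.70 and 3.81 in A549 Rec, a log2 difference of −0.48 that did not pass the test (limma, adjusted p = 0.9997). With the replicate number as a block, CD74 had an unadjusted p under 0.05, as 4.11% of all tested genes did, and an adjusted p of 0.985 in limma. It was lower in A549 Rec in each of the 3 pairs of same-numbered libraries. No gene of the list was called. An unadjusted p under 0.05 in limma was found for 0 of 30 without the block and for CD74 alone with it. Their log2 differences ran from −0.48 to 0.16 with a median of −0.03, and the median over all tested genes was 0.02. HLA-B and HLA-DRA were listed at 0 in libraries in which the partner chain or the regulator of these genes had reads.

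The class III region held 8 of the 12 members that reached a TPM of 1. Among the 4 complement genes, C2 was listed at 0 and CFB, factor B of the alternative pathway, had 2 reads in A549 MOCK replicate 3 and 3 in A549 Rec replicate 3. C4A and C4B, both forms of complement component C4, had reads in every library. C4A had 62, 44 and 22 reads in A549 MOCK against 51, 95 and 49 in A549 Rec. C4B had 68, 53 and 56 in A549 MOCK against 68, 91 and 46 in A549 Rec. These genes are near copies, and 95.9% of the windows of each also stand elsewhere on the primary chromosomes, so that their reads could not be attributed to one or the other with confidence. C4A had 50 private windows, all around the base printed above, and C4B had 0.

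Of the 8 listed genes of the TNF cluster and inflammation, 6 were listed at 0, among them TNF, LTA and LTB, the cytokines of the cluster. AGER, the receptor for advanced glycation products, had 1 read. NFKBIL1, an ankyrin-repeat protein related to the IkB inhibitors, was the exception, with 37, 31 and 46 reads in A549 MOCK against 34, 38 and 45 in A549 Rec. All 6 values lay within a narrow range. Of the HSP70 genes, HSPA1A and HSPA1L were listed at 0 and HSPA1B had 1 read in each of A549 Rec replicates 1 and 3. HSPA1A and HSPA1B are near copies as well, with 75.0% and 71.6% of their windows repeated on the primary chromosomes.

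Of 42 other listed class III genes, 26 were listed at 0, 12 were above 0 with a TPM under 1, and 4 reached a TPM of 1 in at least 1 library. AGPAT1, an acyltransferase that makes phosphatidic acid, was the most abundant member, with 132, 97 and 94 reads in A549 MOCK against 115, 157 and 131 in A549 Rec. PPT2-EGFL8, a read-through transcript outside the list, had 93, 60 and 61 reads in A549 MOCK against 64, 96 and 94 in A549 Rec. PPT2 and EGFL8 themselves were listed at 0. Their annotated spans (chr6:32153441-32163680 and chr6:32164583-32168281, plus strand) overlap that of the read-through on the same strand. How reads in shared stretches were counted is not given, so that reads of the read-through and of PPT2 and EGFL8 cannot be told apart. The annotated spans of PPT2-EGFL8 (chr6:32153845-32171978, plus strand) and AGPAT1 (chr6:32168212-32178096, minus strand) overlap, and the strand setting of the counting is not given in the sources used here, so that reads in the overlap cannot be told apart. PRRC2A, a large RNA-binding protein, had 76, 84 and 5 reads in A549 MOCK against 39, 138 and 23 in A549 Rec. Its lowest values were those of the replicate 3 libraries in both groups.

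Several members had reads in 1 or 2 libraries and next to none in others of the same group. ATF6B, a transcription factor of the unfolded protein response (chr6:32115264-32128253, minus strand), had 2, 0 and 0 reads in A549 MOCK against 1, 54 and 5 in A549 Rec, and 87.1% of its 62 reads were in replicate 2 of A549 Rec. In TPM this was 0.109, 0 and 0 against 0.0552, 2.55 and 0.261. All its windows stood on alternate sequences and it had 0 private windows. KIFC1, a kinesin of the mitotic spindle and the last member, had 5, 1 and 1 reads in A549 MOCK against 3, 168 and 79 in A549 Rec, a TPM of 0.297, 0.0607 and 0.0533 against 0.180, 8.59 and 4.48. A549 Rec replicate 1 lay with the A549 MOCK libraries, and the groups overlapped. The next members were chosen after their values were seen. SKIV2L, a helicase of RNA decay, had 0, 47 and 1 reads in A549 MOCK against 1, 0 and 0 in A549 Rec. BRD2, a chromatin reader of the BET family, had 6, 7 and 85 reads in A549 MOCK against 6, 7 and 137 in A549 Rec. Here the replicate 3 libraries stood apart from the other 4 in both groups, as they did in the mitochondrial share.

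Unevenness was also described for all 24 members with 10 or more reads. In the median member the fullest library held 37.7% of the reads and in 5 members it held over 50%. Among the 4335 other protein-coding genes with reads in the same range (10 to 726 in all) the median was 24.7% and 2.61% were over 50%. Read totals were not matched within that range, and counting error alone raises the share of the fullest library where reads are few. The variance of depth-scaled reads within groups, divided by their mean, is near 1 where counting error is the only source of spread. Its median was 4.50 over the 24 members and 1.96 over the other genes. It was above 5 in 9 of the 24 members (37.5%) and in 12.9% of the other genes. Of 65 such genes elsewhere with at least 99% of windows on alternate sequences, 39 were above 5. BRD2 (100), KIFC1 (63.6), SKIV2L (45.7), PRRC2A (38.7) and ATF6B (34.6) had the highest values among the members. NFKBIL1 (1.68) and AGPAT1 (1.87) were near those of other genes. The origin of the spread was not tested.

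**Figure D4:**
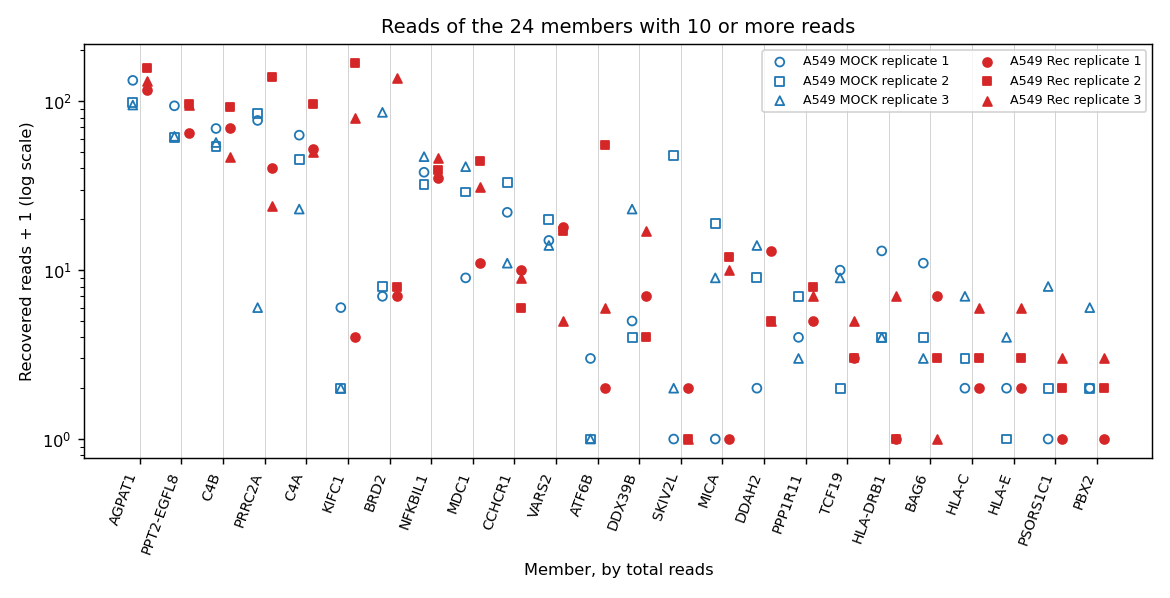
Recovered reads plus 1, on a log scale, of the 24 members with 10 or more reads in all, 1 point per library, with A549 MOCK as open blue and A549 Rec as filled red symbols and 1 shape per replicate number. KIFC1, BRD2, ATF6B and SKIV2L span 1 to 2 orders of magnitude, while AGPAT1, C4B and NFKBIL1 stay close together.

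For A549 Rec against A549 MOCK, 6 members could be tested, those with a TPM of at least 1 in 3 or more libraries. All of them lie in the class III region and they held 65.5% of the members' reads. None was called in limma (at least 2-fold, with an adjusted p under 0.05), and 0 of 6 had an unadjusted p under 0.05. Over all 17408 tested genes 0.00574% were called, which was RCVRN alone, 2.06% had an unadjusted p under 0.05, and in 5.16% the groups did not overlap. The paper, with DESeq2 on read counts and similar thresholds, reported more genes than were called here, both higher and lower in A549 Rec. The groups overlapped in all 6 members. AGPAT1 was at a TPM of 5.75 ± 1.33 (SD, n = 3) in A549 MOCK against 6.86 ± 0.529 in A549 Rec, a log2 difference of 0.24 ± 0.16 (SE of the limma fit). C4A was at 1.17 ± 0.587 and 1.66 ± 0.526, with a log2 difference of 0.32 ± 0.28, the largest of the 6. PPT2-EGFL8 differed by 0.14 ± 0.20, C4B by 0.08 ± 0.21 and PRRC2A by 0.08 ± 0.48. On a scale that understates low levels less, log2(TPM + 0.1), C4A differed by 0.56 and PRRC2A by 0.38, and with voom on recovered reads both differed by 0.60. NFKBIL1 was at 4.09 ± 0.536 and 4.09 ± 0.618, with a log2 difference of −0.00052 ± 0.15. In all 6 the adjusted p was 0.9997 in limma. The median log2 difference of the 6 was 0.11, and that of all tested genes was 0.02.

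Among the 6 tested members, PRRC2A had the largest spread, with an SD of log2(TPM + 1) within groups of 0.72, and 3.93% of all tested genes had a larger one. C4A followed at 0.35 (20.5% of genes larger), then PPT2-EGFL8 at 0.24, C4B at 0.21 and AGPAT1 at 0.21, near the median of all tested genes of 0.21. NFKBIL1 had the smallest, at 0.16. Without A549 MOCK replicate 3, PRRC2A had a log2 difference of −0.37 in place of 0.08, since that library held 5 reads of the gene against 76 and 84. With no filter on low TPM, all 49 members above 0 could be fitted, and KIFC1 alone had an unadjusted p under 0.05 (log2 difference of 1.81, adjusted p = 0.9996 in limma). For the 103 members listed at 0 in all libraries, A549 Rec and A549 MOCK could not be compared.

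**Figure D5:**
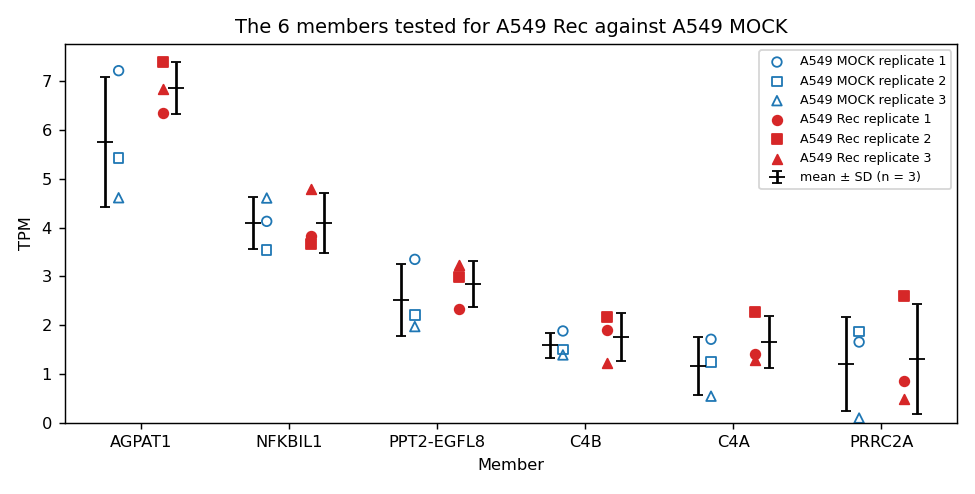
TPM of the 6 tested members in each library, with A549 MOCK as open blue and A549 Rec as filled red symbols, and the mean ± SD of each group (n = 3) in black. The groups overlap for every gene, and PRRC2A spans from 0.0977 to 2.59.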

How the data were processed

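The RNA sequencing libraries of A549 MOCK (3) and A549 Rec (3), all from 2D culture, were analysed, with groups and replicate numbers from the sample labels. Culture lasted 6 days by the labels, while the methods place collection at Day 7. The labels speak of transfection with a plasmid, while the methods give retroviral transduction for A549 Rec. The authors trimmed the paired 150-base reads with Trimmomatic 0.38, mapped them to GRCh38 with HISAT2 2.1.0, counted reads per gene with featureCounts 1.6.3 and deposited the values as TPM, which sum to 1000000 in every library, mitochondrial genes included. The tool versions are from the submitters' processing notes and the methods. The labels name a mouse genome build, while the methods name GRCh38 and the listed genes and coordinates are human. The annotation release, the treatment of reads with several places, the strand setting and whether alternate sequences were in the mapping reference are not given in the sources used here.

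The members and gene lists were chosen with earlier results of these data known, by position and by gene family, and no pattern is given as independent support for those results. The genes named were the HLA, MIC, TAP, PSMB, complement, TNF and HSP70 genes and ATF6B, the 5 members with the highest mean TPM, the tested members, those nearest the ends of the interval with the genes just outside, and B2M, CIITA, NLRC5 and CD74. SKIV2L, BRD2, CCHCR1, TUBB, VARS, LSM2, ABCF1, IFNGR1, IFNGR2 and PSMB10 were picked with their values in view. The block names follow the order of genes along the chromosome.

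TPM does not state the depth. Reads were recovered as the whole numbers (within 0.01) that 1 gene length gave in all 6 libraries, for 29899 of 29900 genes above 0. The length equalled the GENCODE v44 exon length for 14535 of 29679 genes. Whole values were the criterion by which lengths were picked, so they are no check of the recovery, and a wrong length scales all reads of a gene alike. Where few reads left several lengths possible, the one nearest the GENCODE v44 length was taken. Counts of such genes, HLA-DRB1 among them, and whether they reach 10 reads depend on that choice. In a simulation the exact reads were returned for 95.9% of 5909 genes.

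Groups were compared with limma 3.58.1 (R 4.3.3, trend) on log2(TPM + 1). Tested were 17408 genes that reached a TPM of 1 in 3 or more of 6 libraries, with Benjamini-Hochberg adjustment over all of them. A gene was called where the adjusted p was under 0.05 and the change at least 2-fold. Differences on this scale understate changes of genes with a low TPM. Single genes with 3 libraries against 3 cannot reach an exact permutation p below 0.1, and no such p is given. Every member had exon windows in GENCODE v44, and 66 of 152 had the same start and end there as in the deposited table. Alternatives were another pseudocount, filter, scaling, variance model, the replicate block, leaving out libraries and voom on recovered reads. Leaving out both replicate 3 libraries and windows of 100 bases were chosen after seeing the data.

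Replicates carry the numbers 1, 2 and 3 within each group in the labels. Deviations from the group means of same-numbered libraries correlated at 0.115, 0.164 and 0.342 over 17408 genes, each over 0.1. A fit with the replicate number as a block was therefore run beside the main test, which had no block. Deviations within a group balance out, so that a shift shared by the replicate 3 libraries also raises the correlations of replicates 1 and 2. These values do not show that replicates 1 and 2 are pairs. No value column was left without a sample. Values of 4 genes are not reported here.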

Additional observations from a re-analysis of the deposited data

How the results depend on the processing

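No member was called under any alternative run. The number with an unadjusted p under 0.05 was 0 as reported and with the replicate block, and the block changed no call of a member or of the antigen presentation genes. It was 1 with no filter on low TPM (KIFC1), 1 with voom on recovered reads (CCHCR1, a centrosomal protein with 21, 32 and 10 reads in A549 MOCK against 9, 5 and 8 in A549 Rec, log2 difference of −1.46, adjusted p = 0.9998 in limma) and 0 to 1 with each library left out, the 1 being AGPAT1 without A549 MOCK replicate 1 (adjusted p = 0.9925 in limma). Of the 6 tested members, 4 changed sign under at least 1 alternative, in 9 of 81 pairs of member and alternative. NFKBIL1, at −0.00052 as reported, was 0.0025 with quantile normalization and ran from −0.0976 to 0.0719 with each library left out. C4B ran from −0.027 to 0.231. PRRC2A ran from −0.365 to 0.347 over 3 of the 6 omissions, since it was not among the tested genes in the others. The ranges of AGPAT1 (0.112 to 0.387), C4A (0.0906 to 0.496) and PPT2-EGFL8 (0.0348 to 0.310) stayed above 0. Without both replicate 3 libraries PRRC2A was −0.0965 and PPT2-EGFL8 −0.0385. The median over the tested members ran from 0.0533 to 0.310 with each library left out, and was 0.235 with a pseudocount of 0.1, −0.0059 over 49 members with no filter and 0.0277 over 24 members with voom. The cause of these changes was not tested. The number of members under a TPM of 1 in every library was 140, 138 when rescaled without mitochondrial genes and 141 without both replicate 3 libraries, and 119 were under 0.1. The number listed at 0 was 103, and 111 without both replicate 3 libraries. Few reads limited the comparison: 24 of 152 members had 10 or more over the 6 libraries.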

Other observations

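The interval also held 167 rows of other biotypes, such as pseudogenes and non-coding RNAs, of which 153 (91.6%) were listed at 0 in every library and 1.80% reached a TPM of 1 in at least 1 library. Of the 3 protein-coding genes left out by the rule, FLOT1, a membrane scaffold protein, and RPS18, a protein of the small ribosomal subunit, were listed at 0 in all 6 libraries, and all their windows stood on alternate sequences. IER3, an early response gene, had 14, 8 and 34 reads in A549 MOCK against 4, 8 and 31 in A549 Rec, and the replicate 3 library was the highest in each group.

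A run of 50 private windows around a single base was found at 96 exonic sites in 46 members. A position in overlapping members was counted once for each of them. No alternate sequence carried the flanks of position 31145253 in CCHCR1 or 32643813 in HLA-DQA1. At the other sites chromosome 6 differed by that base from every alternate sequence with the flanks. Of the 96 sites 25 lay in coding exons, 35 in UTRs and 36 in exons of non-coding transcripts. AGPAT1, the most abundant member, had its only site in a UTR, at position 32168770 of chromosome 6.

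Elsewhere in the genome, 3477 protein-coding genes had between 1% and 99% of their windows on alternate sequences, and 11.9% of these were listed at 0. IFNGR2, a chain of the interferon-gamma receptor, had 92.2% of its windows on alternate sequences. It was at a TPM of 5.63, 4.39 and 3.43 in A549 MOCK against 2.71, 5.15 and 3.14 in A549 Rec. IFNGR1, with 0%, was between 110 and 170. Other genes of the antigen presentation list were ordered the other way. B2M, with 93.7%, was between 32.6 and 49.7, and PSMB10, with 0%, was between 2.19 and 4.61.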
